A study of Mus musculus with 6 samples.

Results

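ETS transcription factors of blood are described here by the RNA of 10 genes, Spi1, Spib, Spic, Erg, Fli1, Ets1, Ets2, Etv6, Elf1 and Elf4. They were found by gene name in the table of 55401 genes that the authors deposited, and each name matched 1 row. The libraries are total RNA of leukaemic bone marrow cells from 6 mice (Mus musculus), all secondary recipients of HoxA9/Meis1 leukaemia, so both groups share those drivers. 3 libraries (Lym, mice 62, 63 and 87) hold lymphoid cells of mice that had received lymphoid leukaemic stem cells. The other 3 (Lin-, mice 56, 57 and 91) hold Lin-cKit+ progenitors, which lack lineage markers and carry the Kit receptor, of mice that had received Lin- leukaemic stem cells. Strain, age, the vector and the donor of each mouse are not given in the sources used here, so whether mice share a donor leukaemia is not known, and the tests treat each mouse as independent. The series asks how the lymphoid cells at the top of this myeloid leukaemia stand to its progenitor cells, and the comparison made here is Lym minus Lin-.

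ETS factors share a DNA-binding domain, the ETS domain, which recognises a short core, GGAA, and they differ in the partners they bind beside it. In blood, PU.1 (the product of Spi1) is needed for myeloid and B cells and acts by its amount, while ERG and FLI1 sit with RUNX1, GATA2, SCL, LYL1 and LMO2 on the enhancers of stem and progenitor cells. ETS1 is known from T, NK and B cells, ETV6 (TEL) is a repressor needed by adult stem cells in the marrow, and ELF1 and ELF4 (MEF) are activators found throughout blood. Several of these genes are rearranged or overexpressed in human leukaemia.

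Reads assigned to genes came to 18537700 to 22634286 per library, and a floor of 3 reads equalled 2.64 to 3.36 normalized counts, which covers counting error only. Normalized counts are reads divided by the authors' size factor of the library. Single-library values are given in the order of mice 62, 63 and 87 for Lym and of mice 56, 57 and 91 for Lin-. Fold changes were taken by limma on log2(normalized count + 2), with standard errors (SE), and adjusted p-values are its Benjamini-Hochberg values over 14273 genes that reached 10 normalized counts in 3 libraries. The Lym library of mouse 87 stood apart from its group. On the first principal component of the 500 most variable genes, which held 61.8% of the variance, it scored 26.4, inside the Lin- range of 3.86 to 36.4, against -52.5 and -32.9 for Lym mice 62 and 63. Defining markers of committed B cells were at or near 0 in both groups (Pax5 at most 0.953, Cd79a at most 4.48), while the whole list of 9 early B markers summed to 935, 143 and 42.9 normalized counts in Lym against 3.53 to 14.1 in Lin-. Kit was present in every library, at 18902, 12027 and 3158 in Lym and at 3420.2 to 6066 in Lin-. Because mouse 87 is unlike the other Lym mice, the fold changes of the members are also given without it. Mouse 87 was singled out from these same values, as the Lym library nearest to Lin- on that component. Leaving it out favours wider differences between the groups, so calls without it are no independent support.

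Of the 10 ETS genes, 8 passed the filter on low values, and limma called none of them at an adjusted p under 0.05, as it called 0 of all 14273 genes (0%). Counted by sign alone, 7 of the 8 had a positive fold change and 1, Ets2, a negative one, with a median of 0.25 on the log2 scale. Over all genes tested 48.7% were positive and the median was -0.01. In bulk samples more cells with a transcript and more transcript per cell cannot be told apart, which holds for every value here. At an unadjusted limma p under 0.05 stood 3 of the 8, Erg, Etv6 and Elf4, all toward Lym, where 5.96% of all genes tested were higher and 4.27% lower in Lym by that measure. The ranges of the groups did not overlap in 3 of the 8, Etv6, Elf4 and Fli1, all higher in Lym, against 8.49% of all genes tested. Without Lym mouse 87 limma put 2 of the 8 past the threshold, Erg and Etv6, both higher in Lym, where 5.49% of the genes tested in that fit were called higher. edgeR on the recovered reads called 2 without that mouse (higher, 5.17% of all) and none with it (0% of all), and DESeq2 called 3 without it (Erg, Etv6 and Elf4, where 7.5% of all genes were called higher). With all 6 libraries DESeq2 called none of the 8 (1.39% of all genes), and limma with library weights called Erg and Etv6 (2.98% of all were called higher). The weights were estimated from these same values, so the calls made with them are no independent support either. The authors' deposited table called none of them either (0.32% of its genes), with adjusted p-values of 0.188 for Erg, 0.256 for Etv6 and at least 0.964 for the other 8.

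**Figure D1:**
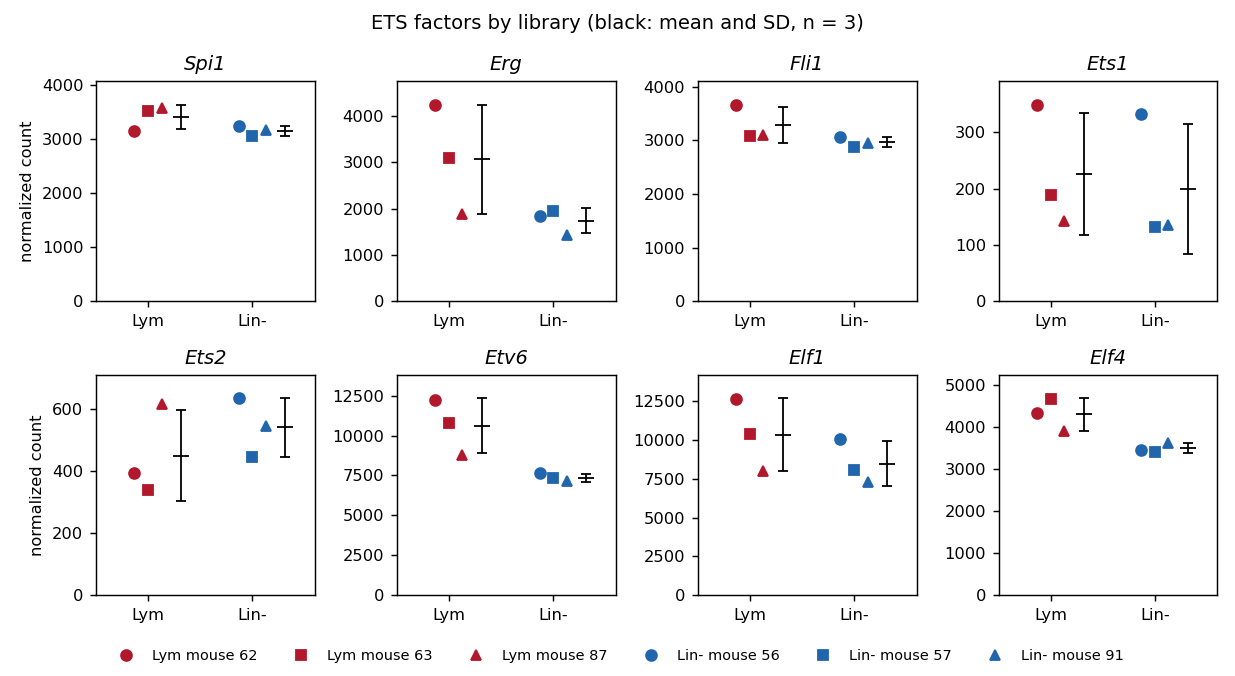
Normalized counts (vertical axis, from 0) of the 8 ETS genes that passed the filter, for each Lym library (red) and Lin- library (blue), with the mean and SD of 3 libraries in black. Etv6, Elf4 and Fli1 have Lym points that all lie above the Lin- points, and in Erg and Etv6 the point of Lym mouse 87 is the lowest of its group.

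Per length, the family fell into 6 abundant genes, 2 low ones and 2 at the floor. Levels in this paragraph are normalized counts per kilobase of exon, given as the median over the 6 libraries. Etv6 stood at 1373 and Elf1 at 1346, followed by Spi1 at 1185, Fli1 at 881, Elf4 at 611 and Erg at 553. Those 6 lay above 88.2% or more of the genes tested. Ets2 was at 85.6 and Ets1 at 19.5, while Spib was at 0.498 and Spic at 0.292. Among neighbours in this order the 6-library ranges overlapped for Etv6 and Elf1, for Elf1 and Spi1, for Elf4 and Erg and for Spib and Spic, and they were apart for the others. Erg ranged from 416 to 1223, the widest of the 6 abundant genes as a ratio of highest to lowest, and also overlapped Fli1, Spi1, Elf1 and Etv6, which are not its neighbours. These are levels of RNA, and protein was not measured.

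**Figure D2:**
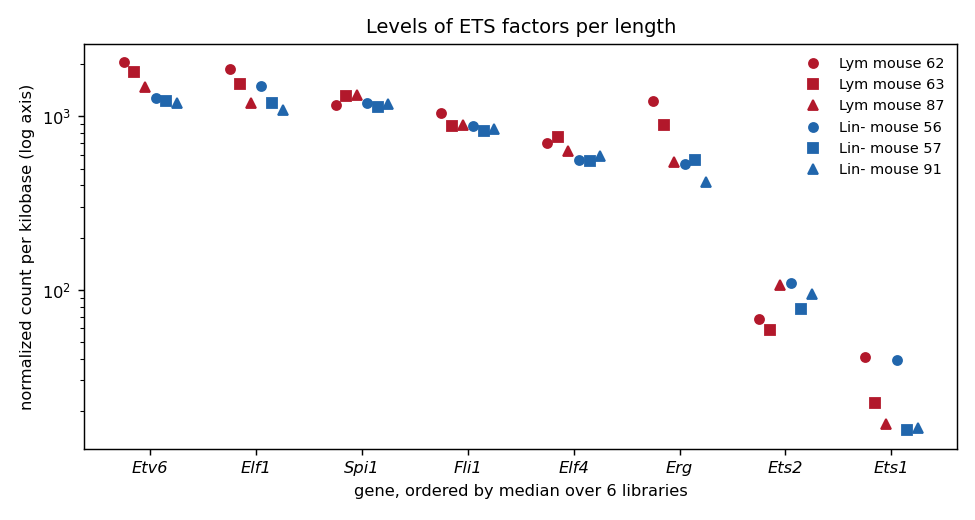
Normalized counts per kilobase of exon (log axis) of the 8 ETS genes that passed the filter, 1 point for each of the 6 libraries (red Lym, blue Lin-), ordered by the median. Ets2 and Ets1 lie below all of the other 6 genes, and Erg spans from 416 to 1223.

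Erg had the highest ratio of group means (1.76) among the 8 tested genes, and its Lym values ran from inside the Lin- range upward. Erg encodes a factor needed for definitive haematopoietic stem cells and kept up in many acute leukaemias (chromosome 16, 95359169 to 95586593, minus strand, in GRCm38). It stood at 4240.4, 3086 and 1881 normalized counts in Lym and at 1843, 1952 and 1441 in Lin-. Lym mice 62 and 63 were above every Lin- mouse, and Lym mouse 87 lay between Lin- mice 56 and 57, so the groups overlapped. The log2 fold change was 0.75 ± 0.27 (SE, 95% interval 0.13 to 1.37, limma adjusted p = 0.451). Without Lym mouse 87 it was 1.06 ± 0.18 (limma adjusted p = 0.00997), and without Lym mouse 62 it was 0.48. DESeq2 gave it an adjusted p of 0.0782 with all 6 libraries.

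Etv6 was higher in all 3 Lym libraries than in any Lin- library. The gene (chromosome 6, 134035700 to 134270158, plus strand) encodes a repressor that is often broken by translocation in childhood B-cell leukaemia. It was at 12234, 10766 and 8799 normalized counts in Lym against 7627, 7313 and 7147 in Lin-. The Lin- mice lay within a narrow band, and the lowest Lym value, that of mouse 87, was above it. The log2 fold change was 0.51 ± 0.14 (SE, 95% interval 0.20 to 0.82, limma adjusted p = 0.42). Without Lym mouse 87 it was 0.64 ± 0.11 (limma adjusted p = 0.0106).

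Elf4, which encodes an activator known from CD8 T cells, NK cells and the cycling of stem cells (chromosome X, 48411046 to 48463132, minus strand), had a smaller fold change. Its normalized counts were 4321, 4656 and 3895 in Lym against 3454, 3401 and 3621 in Lin-. Here too the groups were apart, with mouse 87 the lowest Lym library. The log2 fold change was 0.29 ± 0.11 (SE, 95% interval 0.04 to 0.55, limma adjusted p = 0.457) and 0.36 ± 0.10 without Lym mouse 87 (limma adjusted p = 0.0615). In DESeq2 without that mouse Elf4 was called, with an adjusted p of 0.0413.

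The windows around the annotated starts of these 3 genes are shown because they are the members with an unadjusted p under 0.05, and that of Ets2 because it is the member with a negative fold change. Sequences are from RefSeq for GRCm38.p6, from 250 bases before to 50 bases after a start, read 5′ to 3′ on the gene's own strand. Capitals mark the ETS core, GGAA, or TTCC where the core lies on the opposite strand. Start sites of Erg and Elf4 differ between transcripts, and the window farthest upstream is given (for Erg chr16:95586544-95586843 and for Elf4 chrX:48463083-48463382, both minus strand). Etv6 lies at chr6:134035450-134035749 and Ets2 at chr16:95702157-95702456, both plus strand.
Erg: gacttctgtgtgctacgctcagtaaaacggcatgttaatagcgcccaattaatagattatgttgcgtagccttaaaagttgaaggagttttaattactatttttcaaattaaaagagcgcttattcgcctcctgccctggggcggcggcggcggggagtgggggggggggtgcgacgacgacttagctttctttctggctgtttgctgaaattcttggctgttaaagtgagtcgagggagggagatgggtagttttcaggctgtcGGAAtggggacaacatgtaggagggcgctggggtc
Etv6: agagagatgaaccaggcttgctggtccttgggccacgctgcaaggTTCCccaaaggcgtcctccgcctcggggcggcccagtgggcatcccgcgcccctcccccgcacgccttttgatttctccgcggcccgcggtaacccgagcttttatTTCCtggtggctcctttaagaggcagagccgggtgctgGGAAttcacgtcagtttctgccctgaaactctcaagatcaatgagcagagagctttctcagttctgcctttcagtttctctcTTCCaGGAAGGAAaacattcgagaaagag
Elf4: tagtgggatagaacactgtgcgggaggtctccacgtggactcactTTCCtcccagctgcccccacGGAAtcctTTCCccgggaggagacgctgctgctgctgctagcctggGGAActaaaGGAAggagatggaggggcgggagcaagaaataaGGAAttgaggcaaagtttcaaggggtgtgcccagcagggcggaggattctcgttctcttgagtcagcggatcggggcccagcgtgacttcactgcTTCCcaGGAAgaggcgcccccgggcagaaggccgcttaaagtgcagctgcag
Ets2: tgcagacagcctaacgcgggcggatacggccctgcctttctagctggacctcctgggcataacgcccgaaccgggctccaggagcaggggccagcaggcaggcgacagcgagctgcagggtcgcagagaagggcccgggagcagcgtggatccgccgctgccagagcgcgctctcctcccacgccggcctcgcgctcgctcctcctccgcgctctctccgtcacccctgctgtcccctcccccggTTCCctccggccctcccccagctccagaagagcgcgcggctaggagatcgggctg
The core was found 1 time in the Erg window, 6 times in that of Etv6, 8 times in that of Elf4 and 1 time in that of Ets2, counting both strands. The windows at other annotated starts held 2 and 4 cores for Erg and 2 for Elf4. Over all 32851 windows of 300 bases in the table, 95.98% held at least 1 core and the median was 3. The table held 11 windows for 7 of the 10 members (Spi1, Fli1 and Ets1 had no entry), and all 11 held a core. A longer ETS word, CCGGAAGT, and a PU.1-type word, GAGGAAGT, were searched on both strands and occurred in 0 of the 11, where 3.89% and 3.2% of all windows held them. Both contain the core. A match is a run of letters and not a bound site.

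Spi1 and Fli1 showed little spread over the 6 libraries. Spi1, which encodes PU.1 (chromosome 2, 91082390 to 91115756, plus strand), stood at 3146, 3508 and 3558 normalized counts in Lym against 3231, 3048 and 3155 in Lin-. Its groups overlapped because Lym mouse 62 lay below Lin- mice 56 and 91. The log2 fold change was 0.11 ± 0.11 (SE, limma adjusted p = 0.719), with a 95% interval of -0.13 to 0.36, and 0.08 without Lym mouse 87. Spi1 and Ets2 were the members in which mouse 87 was the highest Lym library.

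Fli1 (chromosome 9, 32422204 to 32542861, minus strand), the paralogue of Erg known from megakaryocytes and endothelium as well as stem cells, was at 3665, 3079 and 3101 in Lym. In Lin- mice 56, 57 and 91 it was at 3062, 2875 and 2949.9. The groups were apart, but Lym mouse 63 and Lin- mouse 56 were nearly level. Its log2 fold change was 0.14 ± 0.11 (SE, 95% interval -0.12 to 0.41, limma adjusted p = 0.666), 0.18 without Lym mouse 87 and 0.06 without Lym mouse 62.

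Elf1 (chromosome 14, 79481194 to 79582494, plus strand), a broadly expressed activator of lymphoid and myeloid genes, overlapped between the groups. It was at 12652, 10379 and 7984 normalized counts in Lym against 10073, 8059.6 and 7291 in Lin-. Lym mice 62 and 63 were the highest, and Lym mouse 87 lay inside the Lin- range. The log2 fold change was 0.27 ± 0.19 (SE, limma adjusted p = 0.615) and 0.45 ± 0.15 without Lym mouse 87 (limma adjusted p = 0.102). It was 0.12 without Lym mouse 62 and 0.17 without Lin- mouse 91. An exon stretch of 327 bases of Elf1 overlaps Wbp4 on the other strand. Wbp4 had 12.0% of the mean normalized count of Elf1 over the 6 libraries and a log2 fold change of -0.12, and whether counting used the strand is not given in the sources used here. Elf1, Erg, Etv6 and Elf4 were the 4 members with both Lym mice 62 and 63 above the other 4 libraries, an order that 19% of all genes tested had.

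Ets1 and Ets2, the founding pair of the family, were low and varied between mice of 1 group. Ets1 (chromosome 9, 32636221 to 32757820, plus strand) was at 349, 188 and 143 normalized counts in Lym and at 333, 131 and 135 in Lin-. Lym mouse 62 and Lin- mouse 56 were high and the other 4 libraries low, so that the high values did not follow the groups. Its log2 fold change of 0.22 ± 0.44 (SE, 95% interval -0.79 to 1.23, limma adjusted p = 0.874) was negative without Lym mouse 62 (-0.14) and without Lin- mouse 57 (-0.0083), and it was 0.50 without Lym mouse 87. Ets2 (chromosome 16, 95702075 to 95721051, plus strand), a target of RAS and MAP kinase signalling in macrophages, was at 393, 340.2 and 616 in Lym against 634, 445 and 545 in Lin-. Lym mice 62 and 63 were lower than every Lin- mouse, and Lym mouse 87 was second only to Lin- mouse 56. The log2 fold change was -0.30 ± 0.25 (SE, 95% interval -0.87 to 0.27, limma adjusted p = 0.676), and -0.55 ± 0.20 without Lym mouse 87 (limma adjusted p = 0.122). It was -0.12 without Lym mouse 63 and -0.18 without Lin- mouse 56.

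**Figure D3:**
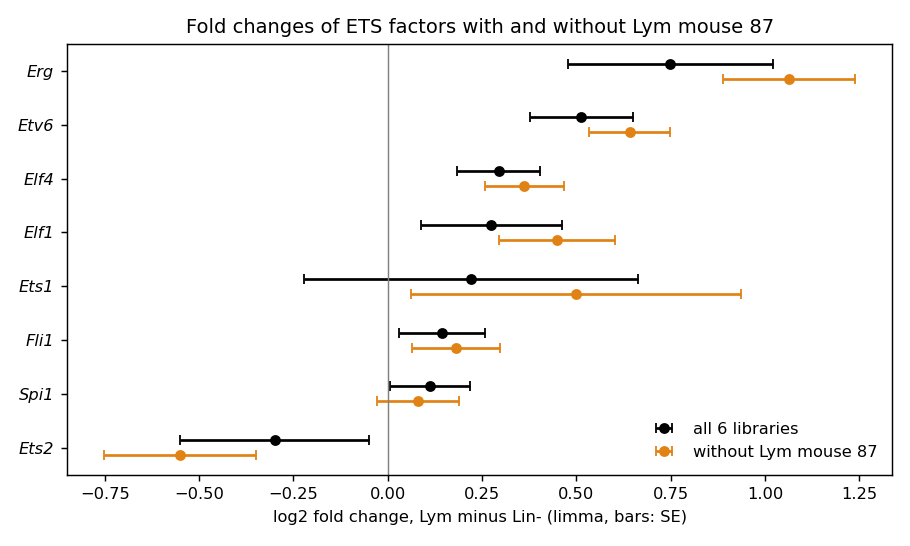
Log2 fold changes, Lym minus Lin- (horizontal axis), of the 8 tested ETS genes from limma with all 6 libraries (black) and without Lym mouse 87 (orange), with bars for the standard error. Erg moves from 0.75 to 1.06 and Ets2 from -0.30 to -0.55, while Spi1 is at 0.11 and 0.08.

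The close relatives of PU.1 were hardly detected. Spib, which encodes a factor of B cells and plasmacytoid dendritic cells (chromosome 7, 44525993 to 44532071, minus strand), had 0, 7 and 3 reads in Lym and 0, 12 and 0 reads in Lin-. Spic, known from red pulp macrophages (chromosome 10, 88674772 to 88685015, minus strand), had 2, 4 and 0 reads against 3, 0 and 0. Neither passed the filter and neither has a fold change here, since most libraries were at or under the floor of 3 reads. The summed level of 4 plasmacytoid dendritic cell markers was 528, 242 and 19.1 normalized counts in Lym against 11.4 to 24.8 in Lin-, with Klk1 at 0 throughout. Most of each sum was Cox6a2, at 419, 184 and 16.2 in Lym and 10.6 to 24.8 in Lin-. Of 6 macrophage markers, C1qa and Treml4 were at 0 in all libraries, and the sum was 1066 to 1466 in Lym against 1005 to 1808 in Lin-. Nearly all of each sum was Adgre1, at 1064 to 1461 in Lym and 1001 to 1807 in Lin-. C1qb, Vcam1 and Slc40a1 reached at most 3.36, 2.64 and 13.5 in any library.

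Markers of other cells that use these factors did not all stand at 0. The 4 mature B markers summed to 6.71 to 21.3 normalized counts in Lym against 0 to 2.06 in Lin-, and the 4 progenitor markers (Kit, Cd34, Flt3 and Ptprc) to 28310.3 to 54187 against 26086 to 27160.4. The 7 T and NK cell markers summed to 10.5 to 41.5 normalized counts in Lym against 0 to 3.52 in Lin-, with Cd8a at 0. The late neutrophil and endothelial lists reached at most 37.1 and 31.3 in any library. The 5 megakaryocyte markers summed to 553, 219 and 46.7 in Lym against 18.6 to 46.8 in Lin-, nearly all of it from Itga2b, with Gp1bb and Ppbp at 0. The early B and dendritic sums and Itga2b were highest in Lym mouse 62 and next in Lym mouse 63, as were Erg, Etv6 and Elf1. The progenitor sum (54187, 49535 and 28310.3 in Lym) and the T and NK sum (41.5, 17.9 and 10.5) had the same order. Within the progenitor list, however, Flt3 was highest in Lym mouse 63 and Cd34 in Lym mouse 87. The part of these marker genes in the values of the ETS genes was not tested.

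Ratios within a library do not depend on the scaling between libraries, and 4 of them were compared, together with the summed level, by exact two-sided permutation tests whose smallest possible p is 0.1. Per kilobase, the ratio of Spi1 to Erg was 0.954, 1.46 and 2.43 in Lym and 2.26, 2.01 and 2.82 in Lin-. Lym mouse 62 alone had more Erg than Spi1 per length, and mouse 87 lay within the Lin- range. On the log2 scale the Spi1 to Erg difference was lower in Lym by 0.636 (exact permutation p = 0.3, 0.5 after Benjamini-Hochberg adjustment over 5 tests). The difference was -0.31 without Lym mouse 62 and -0.98 without Lym mouse 87. Erg relative to its paralogue Fli1 was at 1.16, 1.01 and 0.61 in Lym against 0.605, 0.683 and 0.491 in Lin-. That log2 difference was 0.61 higher in Lym (exact permutation p = 0.2, adjusted 0.5), again with mouse 87 inside the Lin- range. Ets1 over Ets2 ran from 0.158 to 0.606 in Lym and from 0.169 to 0.358 in Lin- (exact permutation p = 0.6, adjusted 0.75), and its log2 difference of 0.52 ran from 0.09 without Lym mouse 62 to 1.05 without Lym mouse 87 (0.83 without Lin- mouse 56 and 0.30 without Lin- mouse 91). Elf1 over Elf4 was at 1.87 to 2.67 in Lym and 1.84 to 2.66 in Lin- (exact permutation p = 1).

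**Figure D4:**
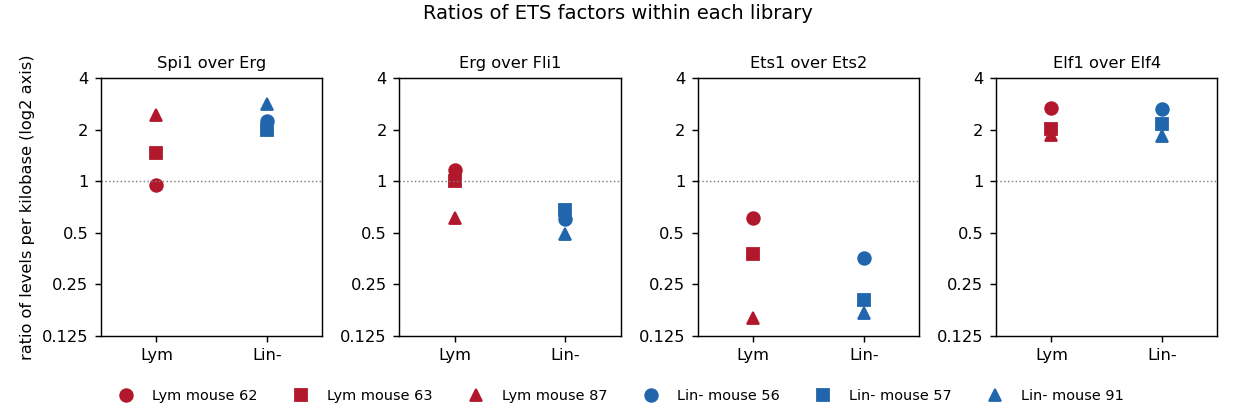
Ratios of levels per kilobase between members within each library (log2 axis, dotted line at 1), with Lym libraries in red and Lin- libraries in blue. Erg over Fli1 is above 1 in Lym mice 62 and 63 and below 1 in the other 4 libraries, and Elf1 over Elf4 covers nearly the same range in both groups (1.87 to 2.67 and 1.84 to 2.66).

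The 10 genes together took 1952, 1736 and 1475 CPM (reads scaled to a common library total) in Lym and 1529.7, 1367 and 1275 CPM in Lin-. Means were 1721 ± 239 in Lym and 1391 ± 129 in Lin- (SD, n = 3 each), and the groups overlapped (exact permutation p = 0.2, adjusted 0.5). The difference of 330.2 CPM was 215 CPM without Lym mouse 62. Etv6 and Elf1 were the largest parts, with 25.2% to 29.9% and 26.6% to 33.3% of the members' reads. Erg made up 10.3% in Lym mouse 62 and 5.48% to 8.57% in the other libraries.

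In the GENCODE M21 annotation 4 of the members lie in pairs that point away from each other. Erg and Ets2 lie on opposite strands of chromosome 16 with 115481 bases and no annotated gene wholly between them, and Fli1 and Ets1 lie likewise on chromosome 9, 93359 bases apart, with 2 gene models between them, neither of which codes for protein. Within each pair the levels differed, with the median of Erg at 553 against 85.6 normalized counts per kilobase for Ets2, and that of Fli1 at 881 against 19.5 for Ets1. The fold changes of Erg and Ets2 had opposite signs (0.75 and -0.30, log2). That difference between the genes was not tested.

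Of 17 other mouse ETS genes listed, 16 were in the table and 9 passed the filter. None of the 9 was called by limma (0% of all genes tested), 5 had a positive and 4 a negative fold change, and the median was 0.08 on the log2 scale. Groups did not overlap in 3, Elf2, Elk3 and Etv3, all higher in Lym, against 8.49% of all genes tested. Elk3, a ternary complex factor that acts mainly as a repressor, was at 1084, 1056 and 1174 in Lym against 710.2, 842 and 813 in Lin- (log2 fold change 0.49 ± 0.13, SE, limma adjusted p = 0.42, and 0.44 without Lym mouse 87). In Elk3, unlike in Erg and Etv6, mouse 87 was the highest Lym library. Etv3, a repressor of growth in macrophages, was at 1375 ± 163 against 1040.3 ± 86.4, and Elf2 at 2599.8 ± 416 against 2074 ± 90.6 (SD, n = 3 each). Elk4, a partner of serum response factor, was at 4039 ± 896 against 3054 ± 246, and Gabpa, an ETS factor of housekeeping promoters, at 2956 ± 250.4 against 3214 ± 122.5. Below the filter, Etv1 was at 35.9, 44.8 and 1.91 in Lym and listed at 0 in all 3 Lin- libraries, and Elf5 at 3.36, 7.83 and 0.953 against 0. DESeq2 called Etv1 alone of this list, where it called 1.39% of all genes. Without Lym mouse 87 limma called Elk4 and Etv3 as higher (5.49% of all genes) and Etv5 as lower in Lym (4.18% of all genes) among 8 tested.

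Among genes whose products work beside ETS factors, Runx1 and Gata2 were higher in every Lym library than in any Lin- library. Those were 2 of the 10 partners tested, against 8.49% of all genes tested. Of 13 partners listed, 10 passed the filter, 7 with a positive and 3 with a negative fold change (median 0.15, log2, and 0.064 without Lym mouse 62), and none was called by limma. Runx1, which binds with ERG and FLI1 on progenitor enhancers, was at 13101, 10073 and 6419 normalized counts in Lym against 5199, 5271 and 4632 in Lin-. All 3 Lym values were above the Lin- ones, with mouse 87 nearest to them, and the log2 fold change was 0.91 ± 0.23 (SE, limma adjusted p = 0.42). Runx1 was the 1 gene of the 3 related lists with an adjusted p under 0.05 in the authors' deposited table. Gata2, a zinc finger factor of stem and mast cells, was at 6521, 2938 and 1505 against 1152, 974 and 798 (log2 fold change 1.67 ± 0.45, limma adjusted p = 0.42). Without Lym mouse 87 limma called both higher in Lym (5.49% of all genes), at 1.19 ± 0.13 for Runx1 and 2.18 ± 0.29 for Gata2 on the log2 scale. Without Lym mouse 62 these were 0.68 and 1.123. Lmo2, a bridging protein of the same complex, was at 6189 ± 1399.6 against 5412 ± 118, and Irf8, a partner of PU.1, at 12299 ± 3145 against 10991 ± 1198 (SD, n = 3 each). Gabpb2, which encodes a partner of GABPA, was at 4804 ± 282 against 4844 ± 294.5, and Tal1, which encodes SCL, was at 7.62 to 7.85 in Lym against 0 to 3.09 in Lin-, below the filter.

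Known targets of PU.1 had fold changes of either sign. Of 14 listed, 12 passed the filter, with 5 positive and 7 negative fold changes, a median of -0.11 (log2) and no call by limma. Groups did not overlap in 6 of the 12, with 2 higher in Lym (Il7r and Btk) and 4 lower (Cybb, Lyz2, Tlr4 and Csf2ra), against 8.49% and 7.08% of all genes tested. In Btk, Tlr4 and Csf2ra the nearest libraries of the groups were nearly level. Btk was at 3131 in Lym mouse 87 and 3123 in Lin- mouse 56. Tlr4 was at 42.5 in Lym mouse 63 and 43.2 in Lin- mouse 56, and Csf2ra at 1178 in Lym mouse 87 and 1195 in Lin- mouse 56. Il7r passed the filter by its Lym libraries alone, since its Lin- values were all under the minimum of the filter. Its positive fold change and its place among the 2 higher genes therefore followed from the filter. Cybb, the membrane subunit of the phagocyte oxidase, was at 216, 862 and 764 normalized counts in Lym against 1650, 2828 and 2236 in Lin-, and the log2 fold change was -2.06 ± 0.48 (SE, limma adjusted p = 0.42). Without Lym mouse 87 limma called it lower in Lym, at -2.33 ± 0.47 (4.18% of all genes were called lower), and without Lym mouse 62 the value was -1.43. Lysozyme (Lyz2) was at 1108 ± 226 against 1602 ± 184, and Csf2ra, a chain of the receptor for GM-CSF, at 1055 ± 140 against 1388 ± 170.4 (SD, n = 3 each). Tlr4, the endotoxin receptor, was at 13.5, 42.5 and 37.2 against 43.2, 121 and 49.5. Il7r, the receptor of lymphoid progenitors, was at 424, 82.8 and 14.3 against 2.65 to 4.13. It was not tested without Lym mouse 87, where it missed the filter, and DESeq2 called it higher with all 6 libraries (1.39% of all genes called). Of the most abundant targets, Ncf1, a subunit of the oxidase in the cytosol, was at 9085 ± 986 against 7952 ± 484.5, and Csf2rb, the shared chain of the GM-CSF, IL-3 and IL-5 receptors, at 5657 ± 776 against 5458 ± 97.7. The kinase gene Btk was at 3279 ± 241 against 3028 ± 102, and Cd68, a lysosomal protein of macrophages, at 2803 ± 307 against 3745 ± 711. Blnk, an adaptor of B-cell receptor signalling, was at 1.91 to 3.36 in Lym and listed at 0 in Lin-.

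**Figure D5:**
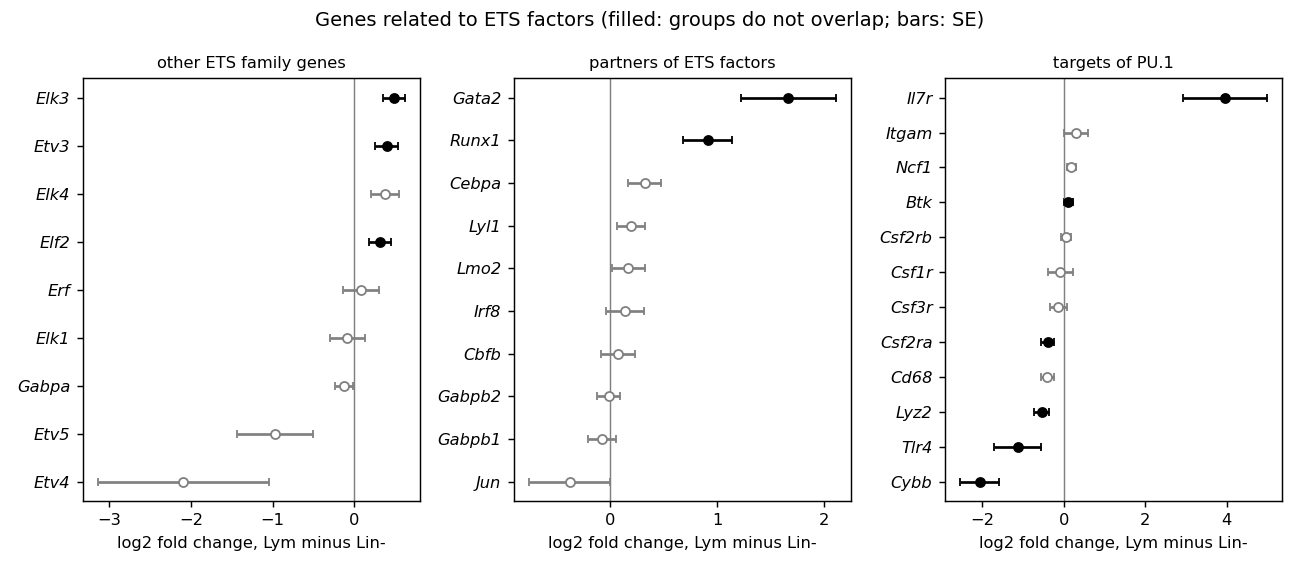
Log2 fold changes, Lym minus Lin-, with standard errors, of the genes that passed the filter in the lists of other ETS genes, partners and PU.1 targets. Filled points mark genes whose groups do not overlap, among them Runx1 at 0.91, Gata2 at 1.67 and Cybb at -2.06.

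By the shape of their values over the 6 libraries, the genes most like Erg among 9206 named genes with a mean of at least 100 normalized counts were Kansl1l, Smad5 and Gyg. Likeness was the root mean square difference of centred log2 values, at 0.0613, 0.0809 and 0.0814 for these 3. Kansl1l was at 1982, 1286 and 798 in Lym against 757, 820.2 and 629 in Lin-. For Spi1 the nearest were Sec31a and Phrf1, at 0.0184 and 0.0197. With 6 libraries and this many genes, some are bound to lie close, and no test was made.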

How the data were processed

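RNA of 6 libraries was compared, 3 Lym and 3 Lin-, grouped by the labels, which give no pairing and no batch. The build GRCm38.p6 and the tools DESeq2, featureCounts 1.6.4, STAR 2.6.1d, Trim Galore 0.6.4 and bcl2fastq are named in the submitters' processing notes, which give no roles here. Per the labels' protocols, a stranded kit for low-input total RNA was used, and the strand setting of the counting is not given in the sources used here. In the deposited table the authors give each library's signal as normalized values per gene, which are reads over that library's size factor. All values up to 10000 were whole multiples of the library's step (100% within 0.01), so whole reads were recovered. The deposited table also gives the authors' log2 fold change, its error, the Wald statistic (a score) and raw and adjusted p-value, per the file headers. Its sign was turned to Lym minus Lin-. Lengths and positions are those of the deposited table.

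limma 3.58.1 (R 4.3.3, trend option) was run on log2(normalized count + 2) over all genes with 10 normalized counts in 3 libraries. Alternatives were edgeR 4.0.16, DESeq2 1.42.0 and limma-voom on recovered reads, TMM scaling, other filters and pseudocounts, library weights and leaving out each mouse. Replicates differed beyond sampling noise (chi-square per degree of freedom at least 25.7). The members and lists were chosen with earlier results of these data known. Genes named are the members, list genes among the 4 most abundant, called in the authors' deposited table or with groups that do not overlap, and the 3 nearest patterns of Spi1 and Erg, of which 1 is not reported here. Etv4, Etv5, Itga2b, Kit, the gene models inside members and the marker genes given were named after their values were seen.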

Additional observations from a re-analysis of the deposited data

How the results depend on the processing

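With 6 libraries, 1 of which stands apart from its group, calls turned on that library and on the tool. limma called 0 genes, against 226 by DESeq2, 660 with library weights, 5 without a filter and 1 with a pseudocount of 8. Leaving out 1 mouse gave 0 to 1348 genes and 0 to 2 members, the upper ends without Lym mouse 87 (1 gene was called without Lin- mouse 91). Library weights, estimated from these same values, called 2 members, Erg and Etv6. Among fits added after seeing the data, edgeR without Lym mouse 87 called 1209 genes and 2 members, and DESeq2 called 65 without Lym mouse 62, 53 without Lym mouse 63, 2074 and 3 members without Lym mouse 87, 53 without Lin- mouse 56, 105 without Lin- mouse 57 and 54 without Lin- mouse 91. The cause was not tested. The fold changes of Spi1, Erg, Fli1, Ets2, Etv6, Elf1 and Elf4 kept their direction in all 15 alternatives. That of Ets1 ran from -0.14 to 0.66 when 1 mouse was left out, below 0 without Lym mouse 62 or Lin- mouse 57. The Elf1 to Elf4 difference, -0.02 with all libraries, ran from -0.17 to 0.12, with the sign turned without Lym mouse 63, Lym mouse 87 or Lin- mouse 56. The median of the other ETS genes (0.08) was 0.40 in DESeq2 (0.19 over all genes with a read) and 0.31 without a filter, which take in genes of few reads, 0.20 at a minimum of 50 normalized counts, 0.16 with library weights and 0.041 to 0.27 when 1 mouse was left out. That of the PU.1 targets (-0.11) ran from -0.35 to 0.011 when 1 mouse was left out. TMM scaling left the median of all genes at -0.01 and called no gene. Depth limits Spib and Spic, which were at a few reads. No paired analysis was possible because the groups share no mouse number.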

Other observations

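Among gene models overlapping Etv6, 2 on its own strand had positive fold changes. Of the antisense models tested, 1 had a negative fold change and 1 a positive one. Gm43982 and Gm43984, models of undetermined type on the same strand that share no exon base with Etv6, were at 776, 470.0 and 358 and at 662, 458 and 349.7 normalized counts in Lym. In Lin- mice 56, 57 and 91 they were at 266, 330.0 and 302 and at 227, 368 and 339. Their log2 fold changes were 0.76 ± 0.28 (SE, limma adjusted p = 0.452) and 0.63 ± 0.28 (limma adjusted p = 0.492), beside 0.51 for Etv6, and 1.01 (limma adjusted p = 0.0329) and 0.85 (limma adjusted p = 0.0754) without Lym mouse 87. In the first the lowest Lym value, of mouse 87, was above all Lin- values, and in the second it lay inside their range. Lin- mouse 56, the highest Lin- library in Etv6, was the lowest in both. Gm17088, an antisense model that also shares no exon base with Etv6, was at 0, 17.9 and 16.2 in Lym and 40.6, 22.0 and 45.4 in Lin-. Its log2 fold change was -2.02 ± 0.90 (SE, limma adjusted p = 0.489) and -2.53 without Lym mouse 87. Gm17089, also antisense, shares 135 exon bases with Etv6 and had 0.32% of its mean normalized count. The log2 fold change of Gm17089 was 0.38 ± 0.50 (SE, limma adjusted p = 0.801), and -0.04 without Lym mouse 63. Whether counting used the strand is not given in the sources used here. Total RNA libraries also hold unspliced RNA, and whether these reads are such RNA was not tested. Inside Fli1, 4 models of the same kind (Gm37474, Gm38346, Gm37082 and Gm38292) had log2 fold changes of 0.31 to 0.48, beside 0.14 for Fli1, and of 0.19 to 0.56 without Lym mouse 87.

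Etv4 and Etv5, ETS genes of the PEA3 group that receptor and ERK signalling are known to induce, had the most negative fold changes of the other family members. Etv5 was at 59.4, 95.1 and 231 normalized counts in Lym against 227, 165 and 271 in Lin-, and the log2 fold change was -0.97 ± 0.47 (SE, limma adjusted p = 0.512). Etv4 was listed at 0 in Lym mice 62 and 63 and at 15.2 in Lym mouse 87, against 5.29, 15.0 and 41.3. In both genes Lym mouse 87 lay inside the Lin- range, and Lym mice 62 and 63 lay below it. Without mouse 87 the log2 fold change of Etv5 was -1.50 ± 0.34 (limma adjusted p = 0.0274), and Etv4 did not pass the filter in that fit.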
